A study of Mus musculus with 19 samples.

Results

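This account follows 37 genes of glycolysis and of the hypoxia response in mouse oral squamous cell carcinoma. They were taken by symbol from a table of read counts for 55487 genes in 19 tumour libraries, where each versioned Ensembl ID was matched to its symbol. All 37 symbols were found, in 38 table rows because Aldoa matched 2 IDs, and all 38 rows passed the filter on low counts, which left 16909 genes in the tests. The list holds 4 transporters of glucose and lactate, 17 enzymes of the pathway between glucose and lactate, 3 regulators of flux, 12 genes of the hypoxia response and Hif1a.

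Every library came from a C57BL/6J mouse given 4NQO, a chemical carcinogen, at 100 µg/ml in the drinking water for 10 weeks, starting at 6 weeks of age, and plain water after that. The 5 groups were regorafenib with anti-PD1 (5 libraries, called the combination below), regorafenib at 5 mg/kg/day (4), anti-PD1 (3), an anti-CD40 agonist (3) and vehicle control (4). Regorafenib, taken by mouth, blocks a number of kinases including the VEGF receptors; anti-PD1 is an antibody to an inhibitory receptor of T cells, and CD40 is an activating receptor of antigen-presenting cells. No dose is given for the antibodies and no separate one for regorafenib in the combination, and nothing says whether the libraries of a group came from separate animals, so every p-value below measures only how far these libraries spread, which may be technical.

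Glycolysis splits glucose into pyruvate and yields ATP without oxygen, and lactate dehydrogenase then converts pyruvate into lactate, which leaves the cell through monocarboxylate transporters. Several steps are run by paralogous enzymes: Pfkm, Eno3 and Pgam2 are the forms of skeletal muscle, while Pfkl, Pfkp, Eno1 and Pgam1 are used in most other tissues. When oxygen is short, the HIF-1α protein escapes degradation, pairs with ARNT and raises transcription of glucose transporters, glycolytic enzymes and genes such as Car9, Bnip3 and Ndrg1 by binding a short DNA core, A or G followed by CGTG. HIF-1α is set mainly by the stability of the protein, which counts of mRNA do not show.

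Library totals ran from 16776177 to 24969492 counts. Levels are CPM, counts scaled to a common library size, after TMM scaling, which corrects for differences in library composition. Tests are edgeR's quasi-likelihood test across all 16909 genes and all 19 libraries, two-sided, with Benjamini-Hochberg adjusted p-values, and a gene was called at an adjusted p under 0.05. Log2 changes are given ± SE. The libraries held both epithelium and muscle: 15 markers of squamous epithelium summed to between 62395 and 86445 CPM, and 20 markers of skeletal muscle to between 30565 and 63754 CPM. Counts of 6 stomach genes (Gkn1, Gkn2, Pgc, Atp4a, Atp4b and Gif) made up 0.000801% to 0.0106% of all counts in the 4 regorafenib libraries and 0.00115% in anti-CD40 replicate 1, against at most 7.59e-05% in each other library; their part in the results below was not tested.

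The stretches of 250 bases before the RefSeq start are shown for 6 members, 4 enzyme and transporter genes that rose with regorafenib (Slc2a1, Pfkl, Pgam1, Ldha), a hypoxia gene that rose (Car12), and a muscle form that did not pass the test (Eno3). They are RefSeq sequences on GRCm38.p6, written 5′ to 3′ on the strand of the gene, and capitals mark each match to ACGTG or GCGTG on either strand (CACGT or CACGC when read on the other strand). Slc2a1 lies at chr4:119108495-119108744 on the plus strand, Pfkl at chr10:78009808-78010057 on the minus strand, and Pgam1 at chr19:41911621-41911870 on the plus strand. Ldha is shown for the first of its 2 starts, chr7:46845554-46845803 on the plus strand, Car12 for chr9:66713436-66713685 on the plus strand and Eno3 for chr11:70656926-70657175 on the plus strand.
Slc2a1: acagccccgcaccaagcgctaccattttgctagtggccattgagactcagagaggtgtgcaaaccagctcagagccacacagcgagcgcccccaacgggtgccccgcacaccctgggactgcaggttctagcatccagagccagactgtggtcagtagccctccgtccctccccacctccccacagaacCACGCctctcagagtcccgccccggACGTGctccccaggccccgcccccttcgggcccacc
Pfkl: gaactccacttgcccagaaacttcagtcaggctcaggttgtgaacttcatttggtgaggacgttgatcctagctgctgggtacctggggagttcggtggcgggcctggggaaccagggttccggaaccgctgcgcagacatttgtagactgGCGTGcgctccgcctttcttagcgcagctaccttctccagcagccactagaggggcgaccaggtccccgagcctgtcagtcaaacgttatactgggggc
Pgam1: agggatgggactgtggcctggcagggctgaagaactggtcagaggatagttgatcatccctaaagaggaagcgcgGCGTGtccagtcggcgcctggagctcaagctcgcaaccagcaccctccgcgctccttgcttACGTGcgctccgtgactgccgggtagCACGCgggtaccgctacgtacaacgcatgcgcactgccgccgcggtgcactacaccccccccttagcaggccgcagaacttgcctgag
Ldha: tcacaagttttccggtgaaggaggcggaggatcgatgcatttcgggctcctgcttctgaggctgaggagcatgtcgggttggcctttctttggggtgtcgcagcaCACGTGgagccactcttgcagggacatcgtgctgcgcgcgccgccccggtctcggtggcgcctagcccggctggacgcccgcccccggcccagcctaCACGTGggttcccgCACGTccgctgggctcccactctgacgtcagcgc
Car12: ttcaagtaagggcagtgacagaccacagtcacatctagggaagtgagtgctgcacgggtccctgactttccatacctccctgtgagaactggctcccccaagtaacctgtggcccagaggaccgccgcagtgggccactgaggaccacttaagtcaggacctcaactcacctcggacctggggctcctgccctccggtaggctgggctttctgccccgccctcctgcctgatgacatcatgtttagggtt
Eno3: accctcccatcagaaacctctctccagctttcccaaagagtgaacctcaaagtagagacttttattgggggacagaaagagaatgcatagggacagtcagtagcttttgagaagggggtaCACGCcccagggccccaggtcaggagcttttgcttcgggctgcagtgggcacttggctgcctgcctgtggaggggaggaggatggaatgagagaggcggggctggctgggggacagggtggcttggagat

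Counting overlapping matches separately, the windows held 2 matches for Slc2a1, 1 for Pfkl, 3 for Pgam1, 5 for Ldha, 0 for Car12 and 1 for Eno3. Of the 37 members 35 had at least 1 window in the table, and 32 of those 35 (91.4%) had a match in at least 1 window; the exceptions were Car12, Gpi1 and Tpi1. Of their 50 windows 40 (80.0%) held a match, against 38.6% of all 32851 mouse windows of the same length. The muscle form Eno3, which did not pass the test, held a match and Car12, which rose, held none. The share of all genes with a match in at least 1 window is not reported here, so the 91.4% has no like value beside it. Base composition of the windows was not taken into account. These counts describe letters in the windows and not binding.

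Regorafenib libraries differed from vehicle libraries in 10 members, all of them higher: the glucose transporter Slc2a1, the enzymes Pfkl, Pfkp, Pgam1, Eno1 and Ldha, the hypoxia genes Car12, Adm and Higd1a, and Hif1a. No member was called lower. Over all genes 562 of 16909 (3.32%) were called higher and 507 (3%) lower; with an offset for exon length and GC content these were 617 and 359, and 8 members were called higher. The median log2 change of the 38 rows was 0.13, against 0.00 over all genes, and 25 rows were above 0. The other treatments against vehicle, given below, had 30 or 31 rows above 0. In bulk tumour RNA, fewer cells of a type and less RNA per cell cannot be told apart.

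Among the transporters, Slc2a1 (ENSMUSG00000028645.11, chr4:119108711-119137983), which encodes the glucose transporter GLUT1, had 152, 133, 130.0 and 185 CPM in regorafenib libraries, against 87.4, 83.1, 72.3 and 69.5 CPM in vehicle libraries. The groups did not overlap, and the log2 change was 0.94 ± 0.13 (edgeR adjusted p = 0.00136). Slc2a3, the high-affinity transporter GLUT3, was barely present, at 2.93 to 4.12 CPM in regorafenib libraries and 2.93 to 4.74 CPM in vehicle libraries. Slc16a1 and Slc16a3 encode the lactate transporters MCT1 and MCT4. Slc16a1 lay at 74.9 to 84.3 CPM in regorafenib libraries and 72.5 to 82.6 CPM in vehicle libraries, and Slc16a3 at 9.63 to 21.0 CPM in regorafenib libraries and 7.67 to 13.8 CPM in vehicle libraries; in both the groups overlapped and the test was not passed.

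Hexokinases trap glucose in the cell, and neither form was called. Hk1, the form of most tissues, averaged 186 ± 6.97 CPM in regorafenib libraries and 171 ± 11.6 CPM in vehicle libraries (SD, n = 4 each). Hk2, the form of muscle and of many tumours, had 196, 202, 208 and 176 CPM in regorafenib libraries, against 233, 219.9, 214 and 258 CPM in vehicle libraries, where its lowest library was above every regorafenib library. Its log2 change was -0.24 ± 0.09 (edgeR adjusted p = 0.101).

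Phosphofructokinase commits glucose to glycolysis, and 2 of its 3 genes were called higher. Pfkl (ENSMUSG00000020277.10, chr10:77986947-78010083), the liver form, had 71.3, 78.7, 67.8 and 90.3 CPM in regorafenib libraries, against 58.5, 48.7, 46.2 and 47.9 CPM in vehicle libraries. The groups did not overlap, and the log2 change was 0.61 ± 0.09 (edgeR adjusted p = 0.00229). Pfkp (ENSMUSG00000021196.14, chr13:6579768-6648777), the platelet form, had 94.4, 97.8, 107 and 118 CPM in regorafenib libraries, against 87.0, 71.1, 76.2 and 68.8 CPM in vehicle libraries. These groups did not overlap either, with a log2 change of 0.46 ± 0.09 (edgeR adjusted p = 0.00873). Pfkm, the muscle form, had 805, 961, 723 and 809 CPM in regorafenib libraries, against 1088, 1001, 1025 and 1276 CPM in vehicle libraries. Every regorafenib library was below every vehicle library, yet the log2 change of -0.41 ± 0.16 did not pass (edgeR adjusted p = 0.112).

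No gene of the middle steps was called. Aldolase cleaves the sugar, and Aldoa, its muscle form, had 2001, 2506, 1897 and 2152 CPM in regorafenib libraries, against 2392, 2176, 2309.8 and 2589 CPM in vehicle libraries, which overlap (log2 change -0.15 ± 0.16, edgeR adjusted p = 0.601). The second row with that symbol held 161 counts over all 19 libraries, and Aldoc, the brain form, averaged 6.38 ± 1.48 CPM in regorafenib libraries and 7.01 ± 0.529 CPM in vehicle libraries. Gpi1, Tpi1 and Gapdh, enzymes of steps before and after the cleavage, had log2 changes of -0.03, 0.01 and -0.15, none of which passed. Pgk1, which makes the first ATP of the pathway, had 275 to 314 CPM in regorafenib libraries and 257 to 277 CPM in vehicle libraries and did not pass (log2 change 0.16 ± 0.08, edgeR adjusted p = 0.232).

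Pgam1 (ENSMUSG00000011752.7, chr19:41911923-41918660), the phosphoglycerate mutase of most tissues, had the smallest p of all 16909 genes in this comparison. It had 101, 102, 104 and 106 CPM in regorafenib libraries, against 69.5, 65.9, 64.7 and 60.8 CPM in vehicle libraries. The 4 regorafenib libraries lay within a few CPM of each other and far above vehicle, with a log2 change of 0.66 ± 0.07 (edgeR adjusted p = 0.000353). Pgam2, the muscle form and not a member, averaged 254 ± 40.6 CPM in regorafenib libraries and 299.6 ± 30.2 CPM in vehicle libraries and did not pass (log2 change -0.24 ± 0.17, edgeR adjusted p = 0.422).

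Enolase makes phosphoenolpyruvate, and 1 of its 2 member genes was called. Eno1 (ENSMUSG00000063524.13, chr4:150236721-150248879), the form of most tissues, had 394, 334, 359.9 and 479 CPM in regorafenib libraries, against 322, 278, 293 and 238 CPM in vehicle libraries. The groups did not overlap, though the lowest regorafenib and the highest vehicle library were close (log2 change 0.47 ± 0.11, edgeR adjusted p = 0.0171). Eno3, the muscle form, had 867, 1074, 769 and 940.4 CPM in regorafenib libraries, against 1151, 988, 1168 and 1237 CPM in vehicle libraries. These groups overlap, and the log2 change of -0.32 ± 0.15 did not pass (edgeR adjusted p = 0.187).

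At the end of the pathway Pkm, pyruvate kinase of muscle and most proliferating cells, was not called, at 1012 ± 102 CPM in regorafenib libraries and 971 ± 40.1 CPM in vehicle libraries (SD, n = 4 each); gene counts do not separate its M1 and M2 splice forms. Ldha (ENSMUSG00000063229.15, chr7:46841475-46855627), the subunit of lactate dehydrogenase that prevails in skeletal muscle and favours lactate formation, had 679.6, 728, 650.0 and 755 CPM in regorafenib libraries, against 613, 568, 559.8 and 546 CPM in vehicle libraries. The groups did not overlap (log2 change 0.30 ± 0.08, edgeR adjusted p = 0.0337). Ldhb, the subunit of heart and other oxidative tissue, had 227, 218, 171 and 214 CPM in regorafenib libraries, against 251, 225, 249.6 and 319 CPM in vehicle libraries. The groups overlapped by 1 library, at 227 CPM in regorafenib against 225 CPM in vehicle, and the log2 change of -0.33 ± 0.14 did not pass (edgeR adjusted p = 0.146).

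Of the flux regulators none was called. Pfkfb3 and Pfkfb4 set the level of fructose 2,6-bisphosphate, which activates phosphofructokinase, and had log2 changes of 0.17 ± 0.14 and 0.04 ± 0.08. Pdk1, which shuts pyruvate out of the mitochondrial pyruvate dehydrogenase, had 58.8, 71.0, 60.3 and 60.7 CPM in regorafenib libraries, against 67.5, 69.8, 66.2 and 67.9 CPM in vehicle libraries. Without passing the test, 3 of the 4 regorafenib libraries were below all vehicle libraries and replicate 2 was above them (log2 change -0.11 ± 0.06, edgeR adjusted p = 0.258).

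Among the 12 hypoxia genes 3 were called. Car12 (ENSMUSG00000032373.15, chr9:66713686-66766845), a membrane carbonic anhydrase that handles acid outside the cell, had 229.9, 247, 222 and 252 CPM in regorafenib libraries, against 146, 169, 145 and 129 CPM in vehicle libraries. The gap between the groups was wide, and the log2 change was 0.69 ± 0.10 (edgeR adjusted p = 0.00136). Adm, the vasodilator peptide adrenomedullin, had 9.86, 9.79, 7.04 and 11.9 CPM in regorafenib libraries, against 6.47, 5.64, 7.40 and 7.47 CPM in vehicle libraries. One regorafenib library lay among the vehicle libraries, and the log2 change was 0.52 ± 0.15 (edgeR adjusted p = 0.0410). Higd1a, a mitochondrial protein of the hypoxia response, had 122, 134, 118 and 126 CPM in regorafenib libraries, against 112, 101, 107 and 96.5 CPM in vehicle libraries, with no overlap (log2 change 0.27 ± 0.08, edgeR adjusted p = 0.0469).

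Car9, a carbonic anhydrase widely used as a marker of tumour hypoxia, was close to absent and its large estimate came from 1 library. It had 0.631, 0.354, 0.451 and 3.63 CPM in regorafenib libraries, against 0.119, 0.605, 0.320 and 0.259 CPM in vehicle libraries; the 3.63 CPM of regorafenib replicate 4 were 82 counts, and the library ranges otherwise overlapped. The log2 change of 2.01 ± 0.69 did not pass (edgeR adjusted p = 0.0866). The other 8 hypoxia genes were not called: the stress and differentiation gene Ndrg1, the mitophagy receptor Bnip3, the HIF prolyl hydroxylase Egln3, the collagen prolyl hydroxylases P4ha1 and P4ha2, Ankrd37, the mTORC1 inhibitor Ddit4 and the histone demethylase Kdm3a. Their log2 changes ran between -0.41 for Ankrd37 and 0.30 for P4ha1 (edgeR adjusted p = 0.206 and 0.142), with Bnip3 at -0.04 ± 0.18 and Ddit4 at -0.01 ± 0.14.

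Hif1a (ENSMUSG00000021109.13, chr12:73901375-73947530), the oxygen-regulated subunit itself, had 315, 234, 302 and 286 CPM in regorafenib libraries, against 164, 177, 136 and 105 CPM in vehicle libraries. The groups were well apart, and the log2 change of 0.96 ± 0.18 (edgeR adjusted p = 0.00938) was the largest among the members called. Its exons overlap the predicted genes Gm49321 on the same strand and Gm15283 on the other.

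**Figure D1:**
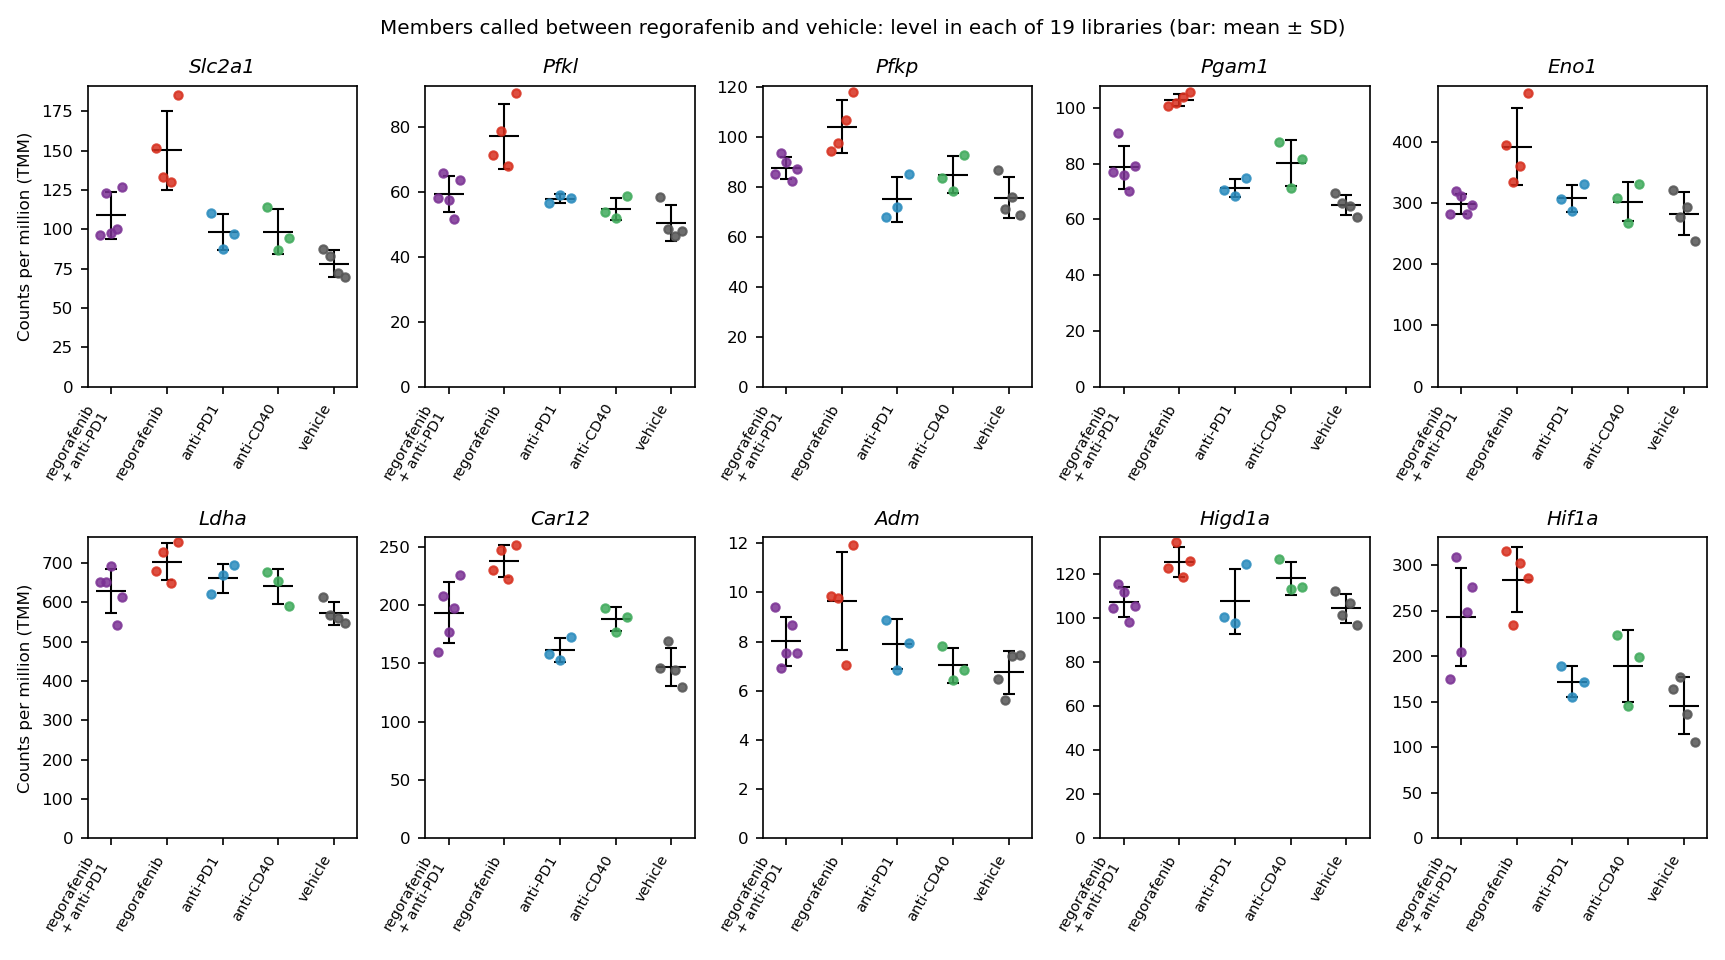
Level of the 10 members called between regorafenib and vehicle, in TMM-scaled CPM (y axis, from 0) in each of the 19 libraries (points) by group (x axis); bars are mean ± SD. In Pgam1 the regorafenib libraries sit between 101 and 106 CPM, above the 60.8 to 69.5 CPM of vehicle and above every library of the other groups. Ldha, Car12, Adm and Hif1a are among the genes that overlap with other treatments.

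The call count changed when single libraries were left out and when marker scores were added as covariates. Calls over all genes with a library left out are not reported here. Without regorafenib replicate 4 or without vehicle replicate 4 the member count was 6 instead of 10, with Eno1, Ldha, Adm and Higd1a lost in either case. Beside these changes 8 of 15 epithelial markers were called higher in regorafenib and 0 lower, and 6 of 20 muscle markers were called lower and 0 higher. The 15 epithelial markers summed to between 85624 and 86445 CPM in regorafenib libraries and between 66593 and 73845 CPM in vehicle libraries, and the 20 muscle markers to between 30565 and 39113 CPM in regorafenib libraries and between 46209 and 53842 CPM in vehicle libraries. As mean log2 CPM the muscle markers overlapped, at 8.56 to 9.17 in regorafenib libraries and 9.03 to 9.42 in vehicle libraries. The epithelial markers did not, at 10.90 to 11.09 and 10.36 to 10.70. A list of 8 neutrophil genes, S100a8 and S100a9 included, which keratinocytes can also express, summed to between 1477 and 3097 CPM in regorafenib libraries and between 35.7 and 1449 CPM in vehicle libraries, and 6 erythrocyte genes to between 113 and 222 CPM in regorafenib libraries and between 82.0 and 104 CPM in vehicle libraries; 0 of 7 neutrophil and 1 of 5 erythrocyte genes tested were called by edgeR (2 and 4 at an unadjusted p under 0.05), and their part in the result was not tested. Of 10 genes each for endothelium, leukocytes and salivary gland edgeR called 0, with 3, 2 and 1 at an unadjusted p under 0.05. Over all genes 4147 of 16909 were under that unadjusted p in this comparison. With the muscle score (mean log2 CPM of its markers) as a covariate Slc2a1, Pfkl, Pgam1 and Car12 were called, at log2 changes of 0.85, 0.55, 0.60 and 0.65, as was Slc16a3, and 6 of the 10 were lost. Over all genes 137 were called in that fit. With the epithelial score as a covariate, added after the data were seen, edgeR called 0 members and 0 of all genes. In that fit 10 members were under an unadjusted p of 0.05, beside 8.73% of all genes. Pgam1 stood at a log2 change of 0.46 (edgeR adjusted p = 0.208). The epithelial score did not overlap between regorafenib and vehicle libraries, so this fit cannot separate the score from the treatment.

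The other treatments were set against the same vehicle libraries, and no member was called in any of them. For the combination against vehicle, edgeR called 4 of all genes (0.0237%), for anti-PD1 0 (0%) and for anti-CD40 0 (0%), with 8, 6 and 6 of the 38 member rows under an unadjusted p of 0.05, beside 10.8%, 9.32% and 6.06% of all genes. The median log2 change of the 38 rows was 0.12 in the combination, 0.13 with anti-PD1 and 0.14 with anti-CD40, with 30, 31 and 31 rows above 0. Over all genes these medians were 0.0114, -0.000695 and 0.0124. DESeq2, run as an alternative, called 0 members with anti-PD1 and anti-CD40, beside 80 and 5 of all genes. In the combination it called 4 members, Slc2a1, Pgam1, Car12 and Hif1a, beside 122 of 16906 genes (0.722%). Limma called 0 members in each of the 3 comparisons, beside 5 of all genes in the combination, 3 with anti-PD1 and 2 with anti-CD40.

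The combination sat between regorafenib and vehicle in those 4 genes. Slc2a1 had 96.4, 123, 97.5, 100.4 and 127 CPM in combination libraries, every one above the highest vehicle library at 87.4 CPM (log2 change 0.48 ± 0.12, edgeR adjusted p = 0.152). Pgam1 had 77.1, 91.1, 76.1, 70.2 and 79.3 CPM in combination libraries, again all above the highest vehicle library at 69.5 CPM (0.27 ± 0.07, edgeR adjusted p = 0.150). Car12 had 159, 208, 177, 197 and 226 CPM in combination libraries, of which the lowest was below the highest vehicle library at 169 CPM (0.40 ± 0.09, edgeR adjusted p = 0.129). Hif1a spread widely, with 175, 309, 205, 249 and 276 CPM in combination libraries, against 105 to 177 CPM in vehicle libraries (0.74 ± 0.18, edgeR adjusted p = 0.136). None of Pfkm, Eno3, Aldoa, Hk2 and Ldhb passed the test, with log2 changes of 0.08, 0.04, 0.06, -0.02 and -0.02 in the combination against vehicle.

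With anti-PD1, Slc2a1 had 110.2, 87.3 and 97.2 CPM (log2 change 0.33 ± 0.14, edgeR adjusted p = 0.453), and Pgam1 had 70.6, 68.5 and 74.8 CPM (0.13 ± 0.08, edgeR adjusted p = 0.640). The smallest p among members belonged to P4ha1, with a mean of 22.4 ± 3.99 CPM in anti-PD1 libraries (n = 3), against 17.1 ± 2.66 CPM in vehicle libraries (SD, n = 4), which overlap (0.39 ± 0.13, edgeR adjusted p = 0.329). Ankrd37 pointed the other way, at 2.82, 2.21 and 2.60 CPM in anti-PD1 libraries, against 3.30, 3.53, 3.52 and 4.57 CPM in vehicle libraries (-0.54 ± 0.21, edgeR adjusted p = 0.424). With anti-CD40, Pgam1 had the smallest p, at 87.8, 71.4 and 81.5 CPM, all above vehicle (0.30 ± 0.08, edgeR adjusted p = 0.621). Car12 had 197, 177 and 189.9 CPM in anti-CD40 libraries, also all above the vehicle range of 129 to 169 CPM (0.35 ± 0.10, edgeR adjusted p = 0.799). None of these passed the test. Pfkm, Eno3, Aldoa, Hk2 and Ldhb had log2 changes of 0.19, 0.19, 0.22, 0.07 and 0.10 with anti-PD1, and of 0.15, 0.17, 0.14, 0.03 and 0.10 with anti-CD40, and none passed.

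**Figure D2:**
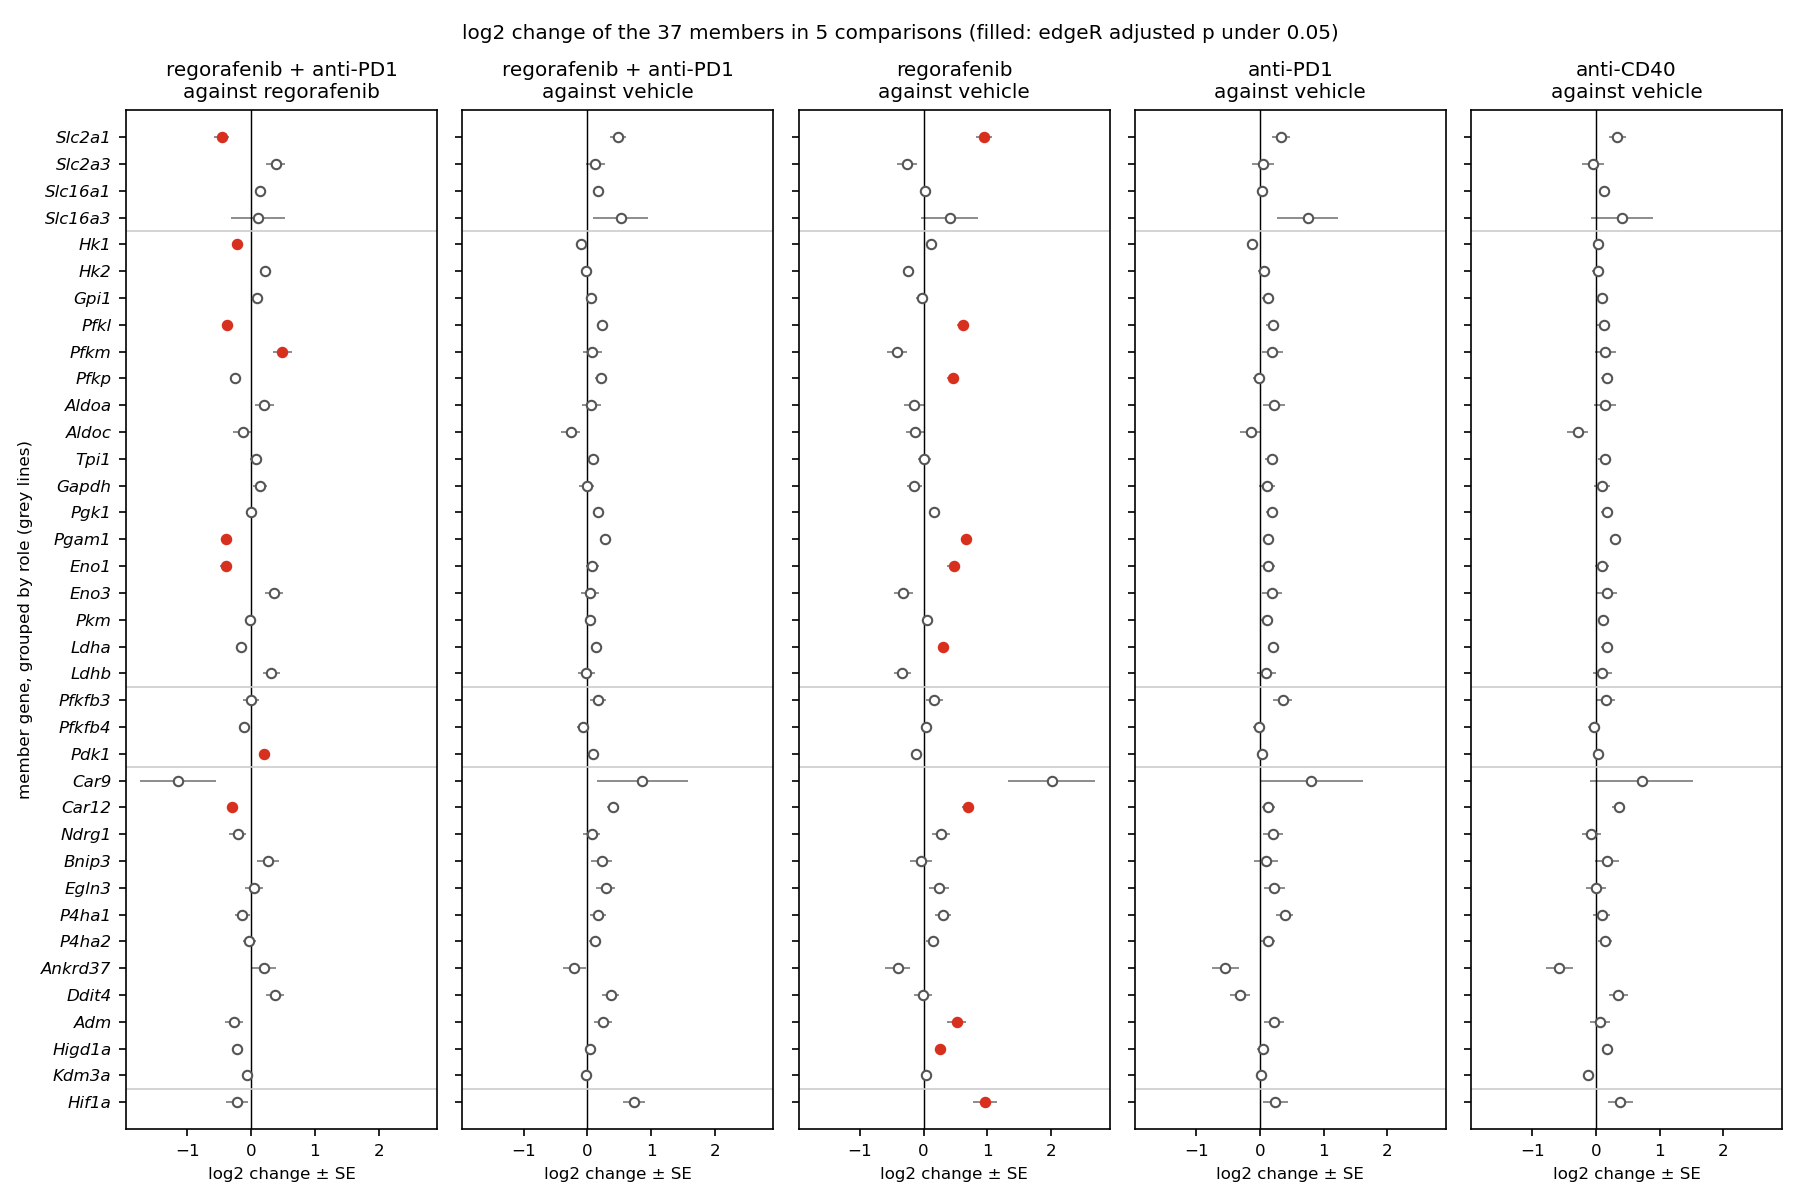
Log2 change ± SE (x axis) of the 37 members (y axis, grouped by role with grey lines between the roles) in 5 comparisons; filled points have an edgeR adjusted p under 0.05. The 10 filled points of regorafenib against vehicle all lie right of 0, no point is filled in the other panels against vehicle, and in the combination against regorafenib 6 filled points lie left and 2 right of 0.

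Set directly against regorafenib, the combination had 8 members called, 2 higher and 6 lower, with 958 of all genes (5.67%) called higher and 810 (4.79%) lower. The 6 lower were Slc2a1, Hk1, Pfkl, Pgam1, Eno1 and Car12, and the 2 higher were Pfkm and Pdk1. This comparison shares its regorafenib libraries with the one against vehicle, so 5 of the 6 genes lower here being among the 10 higher there is not separate evidence.

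Pgam1 had the smallest p, at 70.2 to 91.1 CPM in combination libraries and 101 to 106 CPM in regorafenib libraries (log2 change -0.39 ± 0.07, edgeR adjusted p = 0.00505). Pfkl had 58.1, 65.8, 57.4, 51.6 and 63.5 CPM in combination libraries, against 67.8 to 90.3 CPM in regorafenib libraries (-0.38 ± 0.09, edgeR adjusted p = 0.0133). Eno1 had 282, 319, 310.5, 283 and 296 CPM in combination libraries, against 334 to 479 CPM in regorafenib libraries (-0.39 ± 0.10, edgeR adjusted p = 0.0207). Slc2a1 was lower too (-0.46 ± 0.12, edgeR adjusted p = 0.0220). In each of these genes, and in Hk1 below, no combination library reached the lowest regorafenib library. How many of all genes also did not overlap is not reported here. Hk1 had 158, 163, 151, 173 and 153 CPM in combination libraries, against 179 to 192 CPM in regorafenib libraries (-0.22 ± 0.06, edgeR adjusted p = 0.0315). Car12 overlapped by 1 library, at 226 CPM in combination replicate 5 against a regorafenib low of 222 CPM (-0.30 ± 0.09, edgeR adjusted p = 0.0439).

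Pfkm had 1288, 1045, 1432, 911 and 1103 CPM in combination libraries, against 723 to 961 CPM in regorafenib libraries, so combination replicate 4 lay among the regorafenib libraries (log2 change 0.49 ± 0.15, edgeR adjusted p = 0.0438). Pdk1 had 74.8, 69.6, 75.1, 67.3 and 73.8 CPM in combination libraries, against 58.8 to 71.0 CPM in regorafenib libraries (0.20 ± 0.06, edgeR adjusted p = 0.0345). Eno3, Ldhb, Hk2 and Aldoa did not pass, with Eno3 at 0.36 ± 0.14, Ldhb at 0.32 ± 0.13, Hk2 at 0.22 ± 0.08 and Aldoa at 0.21 ± 0.15 (edgeR adjusted p = 0.0969, 0.124, 0.0954 and 0.383). Hif1a, at 243 ± 53.9 CPM in combination libraries (n = 5) and 284 ± 35.6 CPM in regorafenib libraries (SD, n = 4), did not pass (-0.23 ± 0.17, edgeR adjusted p = 0.409). Muscle markers moved beside this, with 7 of 20 called higher and 0 lower in the combination, as did epithelial markers, with 4 of 15 called lower and 0 higher, and erythrocyte genes, with 1 of 5 called lower and 0 higher. With either marker score as a covariate edgeR called 0 members, beside 15 of all genes for muscle and 1 for epithelium. Under an unadjusted p of 0.05 were 8 members for muscle, beside 13.7% of all genes, and 2 for epithelium, beside 10% of all genes. The epithelial score did not overlap here either, at 10.52 to 10.89 in combination libraries and 10.90 to 11.09 in regorafenib libraries. That fit therefore cannot separate the score from the treatment. Without a covariate, the count of members called was 1 without regorafenib replicate 4 and 2 without combination replicate 1. It was 3 without regorafenib replicate 1 or combination replicate 3, and 5 without regorafenib replicate 3 or combination replicate 5. Pgam1 was the member called in all of these. How many of all genes were called in these fits is not reported here.

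Against anti-PD1 alone the combination had 0 members called, beside 1 of all genes (0.00591%), and 5 of the 38 member rows were under an unadjusted p of 0.05, beside 9.94% of all genes. Ddit4 came nearest, at 63.0, 50.7, 60.7, 50.7 and 45.6 CPM in combination libraries, against 35.6, 39.1 and 27.5 CPM in anti-PD1 libraries, with no overlap (log2 change 0.67 ± 0.15, edgeR adjusted p = 0.121). DESeq2 called it and no other member among 110 of 14613 genes (0.753%), and limma called 0 members, beside 10 of all genes. Hif1a was at 175 to 309 CPM in combination libraries and 155 to 189 CPM in anti-PD1 libraries (0.50 ± 0.19, edgeR adjusted p = 0.367).

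The interaction asks whether the combination differs from the sum of the 2 single effects. It was called below 0 for Pgam1 (-0.52 ± 0.10, edgeR adjusted p = 0.0377) and Pfkl (-0.58 ± 0.13, edgeR adjusted p = 0.0486), and above 0 for no member, beside 30 of all genes (0.177%) called below 0 and 76 (0.449%) above; with the exon length and GC offset these were 16 and 14. Slc2a1 was just outside the threshold at -0.80 ± 0.18 (edgeR adjusted p = 0.0529). Both calls are close to the threshold. In the same interaction 2 of 20 muscle markers were called above 0 and 0 below, with a median of 0.36, and 1 of 5 erythrocyte genes was called below 0, with 5 of 5 at an unadjusted p under 0.05 and a median of -1.39; the part of the erythrocyte genes in the result was not tested. Of 15 epithelial markers edgeR called 0, with 5 at an unadjusted p under 0.05, beside 2669 of all 16909 genes. The count was 0 without regorafenib replicate 1 or 4, anti-PD1 replicate 1 or 3, combination replicate 1, 3 or 4, or vehicle replicate 3 or 4, and 0 with the muscle score or the epithelial score as a covariate, where 12 and 10 members were under an unadjusted p of 0.05, beside 13.9% and 11.3% of all genes. It was 1, Pgam1, without regorafenib replicate 2, combination replicate 2, anti-CD40 replicate 1 or vehicle replicate 2. Calls over all genes without these single libraries are not reported here.

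Setting the forms of an enzyme side by side within a library removes the scaling between libraries. Per kilobase of exon the muscle forms were far more abundant: over all 19 libraries Eno3 averaged 659 CPM per kilobase and Eno1 58.9, and Pfkm averaged 329 with Pfkl at 9.02 and Pfkp at 6.44. In plain CPM these 5 genes averaged 1146, 317, 1099, 60.2 and 86.2. The size of the gap depends on the exon lengths used. These were 1739 bases for Eno3 and 5379 for Eno1, and 3340 for Pfkm, 6675 for Pfkl and 13401 for Pfkp. Aldoa was the highest member at 841 CPM per kilobase, ahead of Eno3 and Gapdh at 487, and Car9 and Slc2a3 were the lowest symbols at 0.287 and 0.573. The share of each muscle form in its family was lower in every regorafenib library than in every vehicle library. Pfkm made up 93.1%, 93.8%, 92.3% and 91.6% of phosphofructokinase in regorafenib libraries, with a mean of 92.7% ± 0.972, against 96.1% ± 0.564 in vehicle libraries (SD, n = 4 each). Eno3 made up 87.7% ± 2.19 of enolase in regorafenib libraries and 92.5% ± 1.15 in vehicle libraries, and Pgam2 made up 85.1% ± 2.07 of phosphoglycerate mutase in regorafenib libraries and 91.5% ± 1.09 in vehicle libraries. Ldhb, set against Ldha in the same way, made up 38.3% ± 2.37 in regorafenib libraries and 48.9% ± 4.40 in vehicle libraries.

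Each of these differences had an exact two-sided permutation p of 0.0286, the smallest that 4 libraries against 4 allow. After adjustment over the 16 tests of 4 shares in 4 treatments it was 0.114, so none passed. As every p was already the smallest possible, the regorafenib shares alone could not have passed, and the adjusted test cannot decide about them. On plain counts without exon length the differences in share against vehicle were -7.74 points for Pfkm, -10.1 for Eno3, -11.1 for Pgam2 and -8.54 for Ldhb, beside -3.41, -4.81, -6.34 and -10.6 points per length. In the combination the shares were 95.6% ± 0.717 for Pfkm, 92.3% ± 1.10 for Eno3, 89.6% ± 1.91 for Pgam2 and 46.2% ± 1.54 for Ldhb (SD, n = 5), each overlapping with vehicle. With anti-PD1 and anti-CD40 the shares overlapped with vehicle too, and the smallest adjusted exact permutation p among these 3 treatments was 0.406.

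**Figure D3:**
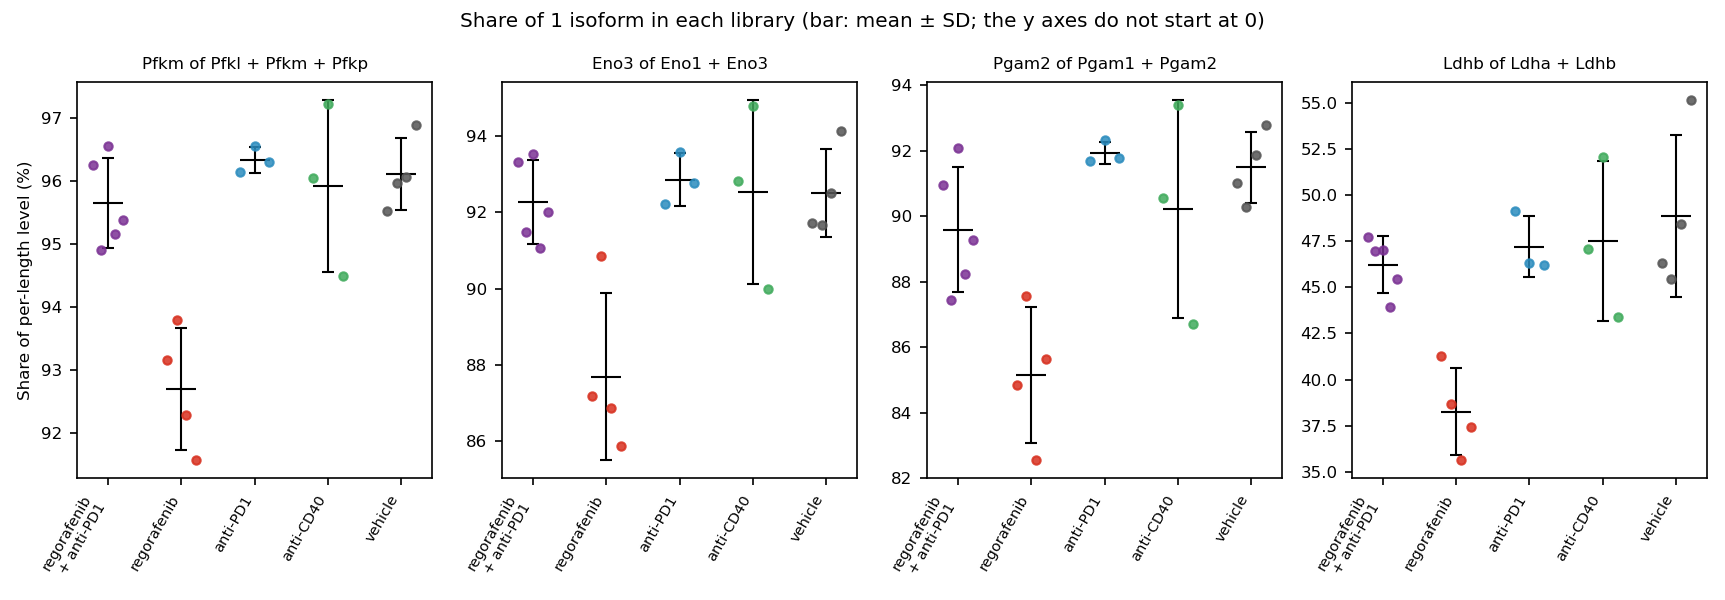
Share (y axis, percent of the per-length level; the axes do not start at 0) of Pfkm, Eno3, Pgam2 and Ldhb in its enzyme family in each library (points) by group (x axis), with mean ± SD as bars. In each panel the 4 regorafenib libraries lie below all 4 vehicle libraries, for Eno3 at 85.9% to 90.9% against 91.7% to 94.1%.

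Each member was related across the 19 libraries to marker scores that hold none of them. Of 76 relations computed (38 rows with 2 scores), 12 rows were positively and 6 negatively related to the muscle score, and 9 positively and 8 negatively to the epithelial score, at a Benjamini-Hochberg adjusted permutation p under 0.05 for Pearson's r. Of all tested genes outside the muscle list, 14.1% had an r as high as the weakest of these members (0.53) and 13.1% one as far below 0; outside the epithelial list, 12.7% and 11.4% reached 0.58 in either direction. These shares describe the same libraries and were not tested against the members' counts. Pfkm followed the muscle score at r = 0.85 and rho = 0.83 (adjusted permutation p = 0.000152 and 0.00038), Hk2 at r = 0.83 and rho = 0.79 (0.000217 and 0.00127), Aldoa at r = 0.81 and rho = 0.82 (0.000285 and 0.00038) and Eno3 at r = 0.79 and rho = 0.77 (0.000217 and 0.00145). Without the 2 libraries farthest from the median score, regorafenib replicate 4 and anti-CD40 replicate 2, r was 0.80, 0.71, 0.82 and 0.75 for these 4 genes. Taken as deviations from the group means, pooled over the 19 libraries, r was 0.76, 0.74, 0.80 and 0.66. Values called within groups below were pooled in the same way, and no group was tested alone.

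The other forms followed the epithelial score: Pfkp at r = 0.91 and rho = 0.86 (adjusted permutation p = 0.000152 and 0.00038), Eno1 at r = 0.87 and rho = 0.87 (0.000152 and 0.00038), and Pgam1 at r = 0.86 and rho = 0.77 (0.000152 and 0.00145). Without regorafenib replicate 4 and vehicle replicate 4 these were r = 0.86, 0.83 and 0.80, and as deviations from the group means r = 0.78, 0.77 and 0.64. Hif1a followed it at r = 0.80 and rho = 0.78 (adjusted permutation p = 0.000456 and 0.00145), or 0.67 within groups. For Slc2a1, Pfkl and Car12 the relation with the epithelial score, at r = 0.77, 0.76 and 0.80 over all libraries (adjusted permutation p = 0.000597, 0.000608 and 0.000585) and rho = 0.74, 0.69 and 0.76 (0.00242, 0.00503 and 0.00165), did not pass within groups, at 0.40, 0.38 and 0.49 (0.161, 0.183 and 0.0737). Without the 2 farthest libraries r was 0.62, 0.63 and 0.70. The negative relations of Slc2a1, Pfkl and Pgam1 with the muscle score, at r = -0.53, -0.56 and -0.58, did not pass without regorafenib replicate 4 and anti-CD40 replicate 2, where r was -0.31, -0.33 and -0.47.

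**Figure D4:**
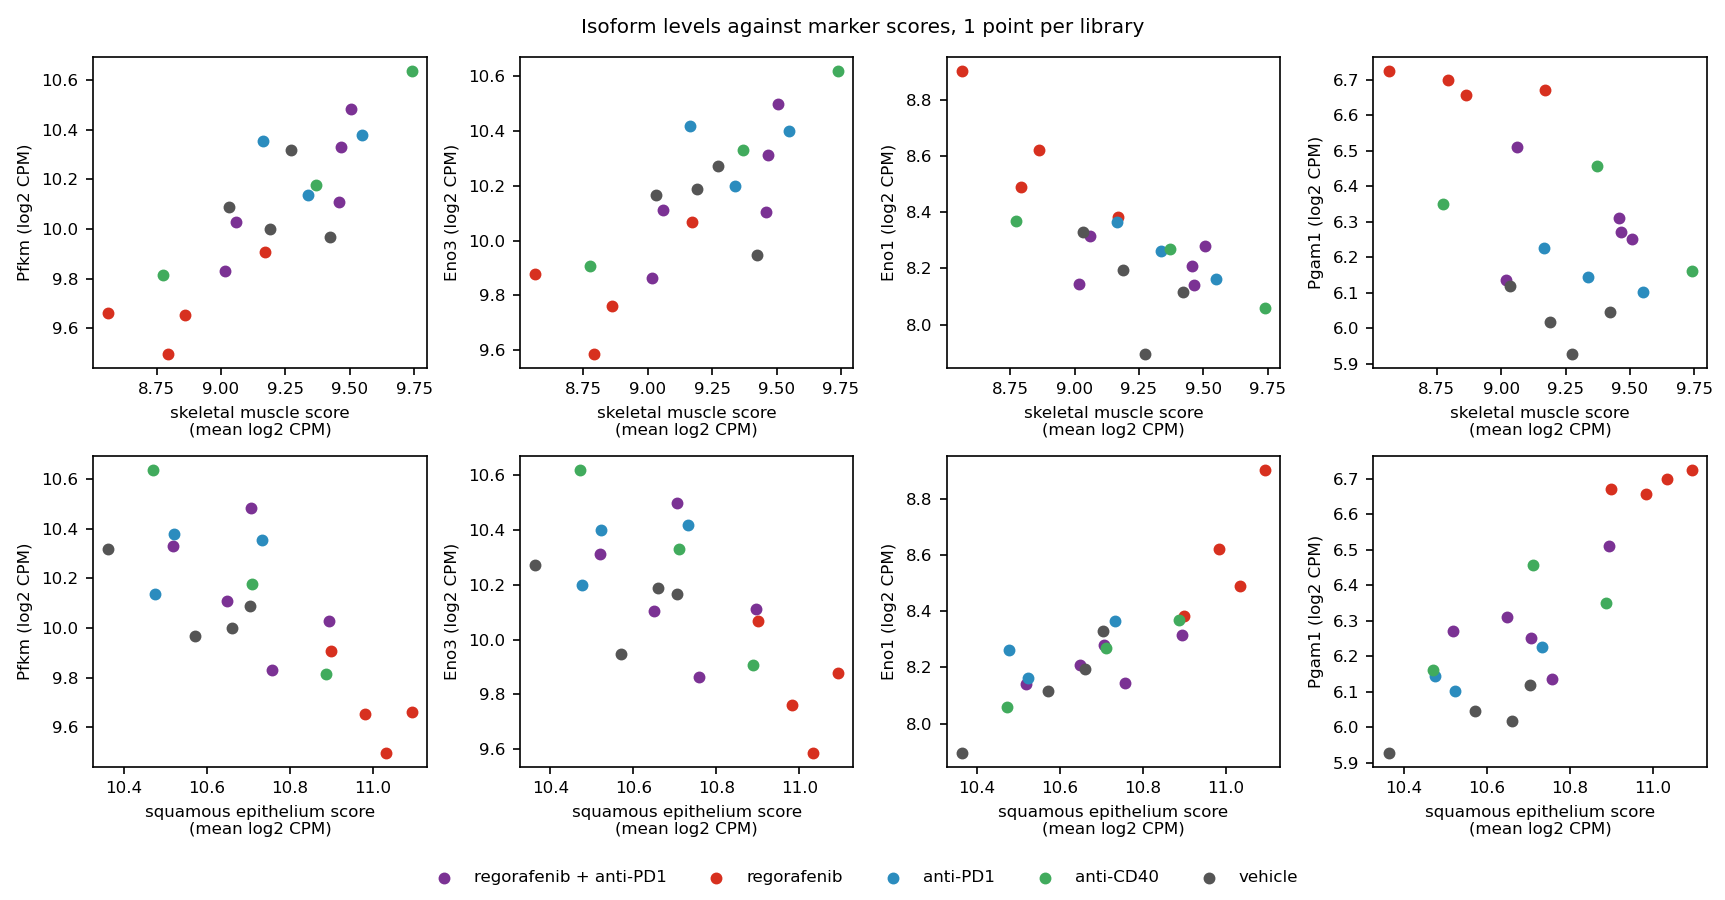
Log2 CPM of Pfkm, Eno3, Eno1 and Pgam1 (y axes) against the mean log2 CPM of 20 skeletal muscle markers (upper row, x axis) and of 15 squamous epithelium markers (lower row, x axis), with 1 point per library coloured by group. Pfkm and Eno3 climb with the muscle score (r = 0.85 and 0.79) and Eno1 and Pgam1 with the epithelial score (r = 0.87 and 0.86).

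Neighbouring pathways were counted for regorafenib against vehicle over all their tested genes. Of 23 further glycolysis and pyruvate genes 0 were called by edgeR, with 7 under an unadjusted p of 0.05, beside 4147 of all 16909 genes. The smallest p was that of Pdk2, a pyruvate dehydrogenase kinase, at -0.40 ± 0.13 (edgeR adjusted p = 0.0706). Of 10 glycogen genes 2 were called lower and 0 higher, among them Phka1, the muscle regulatory subunit of phosphorylase kinase, at -0.58 ± 0.15 (edgeR adjusted p = 0.0348). Of 27 further hypoxia genes 3 were called higher and 1 lower. Fam162a, a mitochondrial HIF target, had 225, 220.4, 214 and 268 CPM in regorafenib libraries, against 131 to 167 CPM in vehicle libraries (0.62 ± 0.11, edgeR adjusted p = 0.00521). Ero1l, an oxidase of protein folding, was higher by 0.43 ± 0.10 and the cytokine Mif by 0.31 ± 0.09, while Hif1an, which blocks HIF by hydroxylating it, was lower (-0.32 ± 0.08; edgeR adjusted p = 0.0186, 0.0487 and 0.0250). Of 7 pentose phosphate genes Rpe and Tkt were called higher, at 0.30 ± 0.08 each (edgeR adjusted p = 0.0359 and 0.0391).

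The median log2 change in these lists was -0.23 for further glycolysis genes, -0.36 for glycogen, -0.04 for further hypoxia genes and 0.14 for pentose phosphate, against 0.00 over all genes and 0.13 over the members. In the combination against regorafenib 7 of the 10 glycogen genes were called higher, among them Phka1 (0.62 ± 0.15) and the branching enzyme Gbe1 (0.44 ± 0.11; edgeR adjusted p = 0.0161 and 0.0185). There 4 of 7 pentose phosphate genes were called lower, Taldo1, Tkt, Pgls and G6pdx, at -0.28, -0.34, -0.22 and -0.23. Of the further hypoxia genes Fam162a (-0.39 ± 0.10) and Mif (-0.32 ± 0.09) were called lower, and Hif1an (0.29 ± 0.08) and the HIF-2α gene Epas1 (0.36 ± 0.10) higher; of the further glycolysis genes Gpd1, Pdk2 and Fbp1 were called higher and Pdk3 lower. In the combination, anti-PD1 and anti-CD40 against vehicle, edgeR called no gene of the 4 lists, with 5, 6 and 2 of their genes at an unadjusted p under 0.05. Over all 16909 genes 1819, 1576 and 1025 were under that unadjusted p. In the combination the smallest p among pentose phosphate genes was that of Rpia (-0.17 ± 0.08) and among glycogen genes that of Gyg (0.18 ± 0.14). With anti-PD1 the smallest p in each list were those of Hk3 (1.00 ± 0.28), Pgd (-0.15 ± 0.06), Hmox1 (-0.24 ± 0.11) and Pygl (0.20 ± 0.13), and with anti-CD40 those of Fam162a (0.27 ± 0.11), Hk3 (0.55 ± 0.29), Pygl (0.24 ± 0.13) and Rpe (0.12 ± 0.09). Beside the anti-PD1 values, 7 of 10 leukocyte and 5 of 5 erythrocyte genes were under that unadjusted p, with 0 called. For muscle markers this was 1 of 20 and for epithelial markers 0 of 15. The part of these markers was not tested.

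Some members share sequence or position with other genes, and how reads were counted, and whether by strand, is not given in the sources used here. Aldoa, Gapdh, Pgk1, Pgam1 and Ldha each have 2 annotated pseudogenes named after them, to which reads could be split. Exons of Pfkm overlap the predicted gene Gm26513 on the same strand and Senp1 on the other, Pkm overlaps Gm49759 on the same strand, and exons of 14 members overlap a gene on the other strand, so their values are uncertain to that extent.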

How the data were processed

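RNA labelled oral squamous cell carcinoma was sequenced as 19 stranded, poly(A)-selected libraries, per the labels' protocols. The submitters' processing notes name cutadapt 2.4, STAR 2.7.2a and the build GRCm38; which program counted reads per gene, by which strand and annotation, is not given in the sources used here. The deposited table holds raw counts per gene, not normalized, for 55487 genes. Symbols came from GENCODE M21, in which 54349 IDs matched with their version and 55141 had an entry.

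Counts were filtered with filterByExpr (16909 genes, 99.916% of counts), scaled by TMM and fitted with edgeR 4.0.16 (quasi-likelihood, robust, 14 residual degrees of freedom; R 4.3.3) over all 19 libraries without covariates. Adjusted p-values cover all genes tested, at a threshold of 0.05. The robust option, the stomach list and the epithelial covariate were chosen after seeing the data. Each SE was derived as the size of the log2 change over the root of its F statistic. Log2 CPM used a prior count of 2. Isoform shares were tested by exact permutation and correlations by 100000 permutations (SciPy 1.17.1). Alternatives used DESeq2 1.42.0, limma 3.58.1, other scaling, no filter, covariates, a replicate block and each library left out. The scripts were checked on simulated counts with known changes. No 2 libraries were alike within sampling noise.

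The members and lists were chosen with earlier results of these data known. Full statistics are given for called members, at most 8 by smallest p in a comparison, and for Pfkm, Eno3, Aldoa, Hk2 and Ldhb; in the other lists for at most 5 called genes, or the 1 with the smallest p. Members outside that rule, such as Adm and Higd1a among the 10 called with regorafenib, were named after their values were seen. Some genes of the other lists that this rule would name are not reported here.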

Additional observations from a re-analysis of the deposited data

Results flagged for a closer look

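In groups of 4 or 5 libraries, each member was searched for a library far from the others of its group. Of 114 such tests 2 stood out, where chance gives about 1 in 20. Pdk1 was at 71.0 CPM in regorafenib replicate 2, against 58.8 to 60.7 CPM in the other 3 regorafenib libraries. Car9 was at 3.63 CPM in regorafenib replicate 4, against 0.354 to 0.631 CPM in the other 3.

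The test of the interaction between regorafenib and anti-PD1 called 2 members: Pfkl at -0.58 ± 0.13 and Pgam1 at -0.52 ± 0.10 on the log2 scale (edgeR adjusted p = 0.0486 and 0.0377). Both were close to the threshold. Neither was called with the replicate block, with the muscle or epithelial score as a covariate, or when certain single libraries were left out. No separate dose of regorafenib is given for the combination.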

How the results depend on the processing

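Against vehicle, regorafenib had 10 members called, 5 with the muscle covariate, 0 with the epithelial covariate and 6 to 10 when 1 library was left out. The combination against regorafenib had 8, which became 3 without the filter, 13 in DESeq2, 14 in limma, 4 with the replicate block, 0 with either covariate and 1 to 10 when 1 library was left out. The interaction had 2, which became 1 with RLE scaling, 6 in DESeq2, 0 with the replicate block, 0 with either covariate, 4 with the salivary gland covariate, 1 with the exon length and GC offset, 1 without the robust option and 0 to 3 when 1 library was left out. The combination against vehicle had 0, and 4 in DESeq2; against anti-PD1 it had 0, and 1 in DESeq2. Over all genes, regorafenib against vehicle had 1069 calls, and 137 with the muscle covariate, 1607 with the salivary gland covariate, 1684 in DESeq2 and 1673 in limma. The combination against regorafenib had 1768, and 1094 without the filter, 15 with the muscle covariate and 1 with the epithelial covariate. It had 2496 in DESeq2, 3052 in limma and 1200 with the replicate block. The interaction had 106, the same with RLE scaling, 582 in DESeq2, 36 with the replicate block and 78 without the robust option. It had 53 with the muscle covariate, 11 with the epithelial covariate, 292 with the salivary gland covariate and 30 with the exon length and GC offset. The cause of these changes was not tested. The block gave 8 members for regorafenib against vehicle, beside 715 of all genes. Calls over all genes are not reported here for the fits with 1 library left out. The main tests did not pair libraries with the same number. Of 33 same-number pairs 15 correlated over 0.1 (r between -0.45 and 0.54), and 6 of 19 libraries correlated best with their own number. The numbers are those of the titles, and in some vehicle and regorafenib libraries they differ from those of the column names. These correlations and the block therefore cannot settle whether libraries were paired.

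Direction changed in these cases. The epithelial score did not overlap between regorafenib libraries and those of vehicle or the combination, so its fits cannot separate the score from the treatment. With the epithelial covariate, the log2 change of regorafenib against vehicle was 0.0203 for Hk2, 0.0377 for Pfkm, 0.28 for Aldoa, 0.0167 for Ldhb and 0.0201 for Pdk2. With the muscle covariate it was 0.12 for Aldoa. In the combination against regorafenib Aldoa was at -0.13 with the muscle and -0.10 with the epithelial covariate. None of these was called. With 1 library left out, the difference in share against vehicle ran between -0.00985 and 0.899 points for Eno3 with anti-PD1, between -0.541 and 0.314 for Eno3 in the combination, and between -1.10 and 1.31 for Eno3 with anti-CD40. It ran between -0.836 and 0.527 for Pfkm with anti-CD40, between -2.85 and 0.480 for Pgam2 with anti-CD40, between -3.62 and 0.756 for Ldhb with anti-CD40 and between -2.78 and 0.460 for Ldhb with anti-PD1. With regorafenib it stayed below 0 for all 4 shares, between -3.78 and -3.04 for Pfkm, -5.87 and -4.20 for Eno3, -7.14 and -5.47 for Pgam2, and -11.7 and -8.49 for Ldhb. Low counts limit Car9, Slc2a3 and the second Aldoa row.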
